A study of Mus musculus with 516 samples.

Results

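The Mrgpr genes encode receptors coupled to G proteins, and 9 of them are described here: Mrgprd, Mrgpra3, Mrgprb4, Mrgprb5, Mrgpra1, Mrgpra4, Mrgpra9, Mrgpra2a and Mrgpra2b. They were taken by name from the 11251 genes of a table of read counts in 516 single cells of the mouse dorsal root ganglion, which houses sensory neurons of the body. The cells came from 2 inbred strains, 243 from C57BL/6 and 273 from CAST/Ei, a strain of wild origin. Naive cells, captured after dissociation, numbered 306 and cultured cells 210, of which 99 were CAST/Ei. Cultured cells were plated for 48 h after dissociation, which cuts the axons (in vitro axotomy), with ara-C, an inhibitor of cell division, present from 24 h. All suspensions were cleared over Percoll and captured on a microfluidic chip for large cells, which limits the cells to those that pass both. No genotype other than the strain, no age and no animal, culture or capture run is named in the labels, so each of the 4 groups counts as 1 sample, no difference has a replicate check, and nothing was tested. Intervals are exact 95% Poisson intervals for reads and Clopper-Pearson intervals for shares of cells. They cover counting error only, and amplified reads without molecular identifiers are not independent molecules.

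Mrgpr receptors are known from small sensory neurons with unmyelinated fibres. Mrgprd, a receptor for beta-alanine, marks non-peptidergic nociceptors that end in the epidermis. Mrgpra3, a receptor for the antimalarial drug chloroquine, marks neurons that transmit itch, and Mrgprb4 marks fibres that respond to gentle stroking of hairy skin. Such receptors signal largely through the Gq family of G proteins and phospholipase C beta.

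The table held 496696577 reads, with 13932 to 2978345 per cell. Cells whose neuron markers exceeded the glial, fibroblast and endothelial markers, called neuron-like, made up 87.1% of naive C57BL/6, 24.3% of cultured C57BL/6 (27 cells), 93.7% of naive CAST/Ei and 60.6% of cultured CAST/Ei cells (60 cells). Between 2 and 9 cells per group lay within 0.5 log2 units of that cut. Group levels below are reads summed over all cells of a group and scaled to the total of those cells as CPM.

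All 9 genes lie on chromosome 7 of the mm10 build, and 8 of them fall in 1 stretch, in the order Mrgpra9 (47234861 to 47252848), Mrgpra1 (47334875 to 47354240), Mrgpra2a (47426328 to 47452139), Mrgpra2b (47463806 to 47528862), Mrgpra3 (47588950 to 47601372), Mrgpra4 (47980837 to 47982095), Mrgprb5 (48167983 to 48169019) and Mrgprb4 (48198070 to 48199288), all on the minus strand. Mrgprd stands apart on the plus strand (145314835 to 145324086). Mrgpra4, Mrgprb4 and Mrgprb5 have 1 exon in the longest annotated transcript and the other members 2. The members resemble each other enough for reads to be shared between them, which bears on each value below. Coding stretches of 100 bases from 3 pairs are shown, 5′ to 3′ on the minus strand of mm10, with the bases that differ within a pair in capitals. They lie at chr7:47427109-47427208 (Mrgpra2a), chr7:47464583-47464682 (Mrgpra2b), chr7:47590016-47590115 (Mrgpra3), chr7:47981748-47981847 (Mrgpra4), chr7:48198287-48198386 (Mrgprb4) and chr7:48168091-48168190 (Mrgprb5). For Mrgpra2a and Mrgpra2b the gapless stretch with most differences is shown, and for the other pairs the gapless stretch with fewest, so that each shows how little can separate a read of one gene from the other.
Mrgpra2a: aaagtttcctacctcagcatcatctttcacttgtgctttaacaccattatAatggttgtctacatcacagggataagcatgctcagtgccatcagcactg
Mrgpra2b: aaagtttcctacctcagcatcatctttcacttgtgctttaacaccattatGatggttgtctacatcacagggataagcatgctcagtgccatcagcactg
Mrgpra3: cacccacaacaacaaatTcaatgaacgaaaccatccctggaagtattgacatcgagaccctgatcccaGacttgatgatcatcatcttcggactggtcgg
Mrgpra4: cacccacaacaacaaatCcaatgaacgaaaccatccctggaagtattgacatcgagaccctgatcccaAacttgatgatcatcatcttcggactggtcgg
Mrgprb4: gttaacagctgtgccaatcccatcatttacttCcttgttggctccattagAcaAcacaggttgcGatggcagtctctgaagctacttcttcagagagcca
Mrgprb5: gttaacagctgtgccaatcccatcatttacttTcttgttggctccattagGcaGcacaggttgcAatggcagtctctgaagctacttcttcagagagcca

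Over whole coding sequences, Mrgpra2a and Mrgpra2b were identical at 991 of 993 aligned bases (99.8%). Mrgpra3 and Mrgpra4 were identical at 88.6%, Mrgpra1 and Mrgpra9 at 88.3%, and Mrgprb4 and Mrgprb5 at 84.5%. Mrgprd reached 59.3% to 62.2% with each of the other members. Of all runs of 75 bases in a transcript, 80.4% of those of Mrgpra2a and 78.7% of those of Mrgpra2b occurred in another gene's transcripts. The same share was 1.77% for Mrgpra9, 1.27% for Mrgpra4, 0.69% for Mrgpra1, 0.164% for Mrgpra3 and 0 for Mrgprd, Mrgprb4 and Mrgprb5. With runs of 50 bases it rose to 13.5% for Mrgpra9, 13.1% for Mrgpra4 and 7.14% for Mrgpra3, and remained 0 for Mrgprd. Values of Mrgpra2a and Mrgpra2b are therefore uncertain as single genes, and their sum is given as well. How reads with several matches were counted is not given in the sources used here.

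The 250 bases before the start site (RefSeq, GRCm38.p6) were identical between Mrgpra2a and Mrgpra2b at 250 of 250 positions, and between Mrgprb4 and Mrgprb5 at 206 of 250 (82.4%). These RefSeq starts differ from the ends of some gene spans given above. By those spans the Mrgpra2b window lies within its gene, and the windows of Mrgprb4 and Mrgprb5 reach into theirs. The stretch of Mrgpra2a, chr7:47452165-47452414 on the minus strand, is shown because the pair is described together below, and the same letters stand at chr7:47489583-47489832 for Mrgpra2b. It is in lower case throughout because the letters TGTGGT, the core of the site bound by RUNX factors and the only motif searched (on both strands), do not occur in it.
Mrgpra2a upstream: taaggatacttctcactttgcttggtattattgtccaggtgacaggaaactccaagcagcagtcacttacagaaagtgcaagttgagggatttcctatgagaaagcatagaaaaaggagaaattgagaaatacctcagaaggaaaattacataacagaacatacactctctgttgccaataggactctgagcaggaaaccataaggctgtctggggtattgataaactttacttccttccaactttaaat
Of the 8 members with an entry, 1 (Mrgpra1) held these letters, beside 14% of 32851 upstream windows of that length, so the share among members was near that of all genes.

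In naive C57BL/6 cells Mrgpra3 had the highest level per kilobase of transcript, 160 CPM per kb, followed by Mrgpra2b (43), Mrgprd (35.3), Mrgpra2a (32.8) and Mrgprb5 (25.8). The other members were low there, with Mrgpra1 at 4.91, Mrgprb4 at 4.67, Mrgpra9 at 1.83 and Mrgpra4 at 0.827 CPM per kb. In naive CAST/Ei cells Mrgpra3 (303 CPM per kb) and Mrgprb5 (288) led, followed by Mrgprb4 (136.03), Mrgpra4 (120.9), Mrgprd (75.6), Mrgpra1 (50.7), Mrgpra9 (12.3), Mrgpra2b (2.61) and Mrgpra2a (1.24). The order thus differed between the strains, with Mrgpra2a and Mrgpra2b last in CAST/Ei and Mrgprb4 and Mrgpra4 among the lowest in C57BL/6. Without replicates, neighbours in these orders cannot be told apart by their spread.

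**Figure D1:**
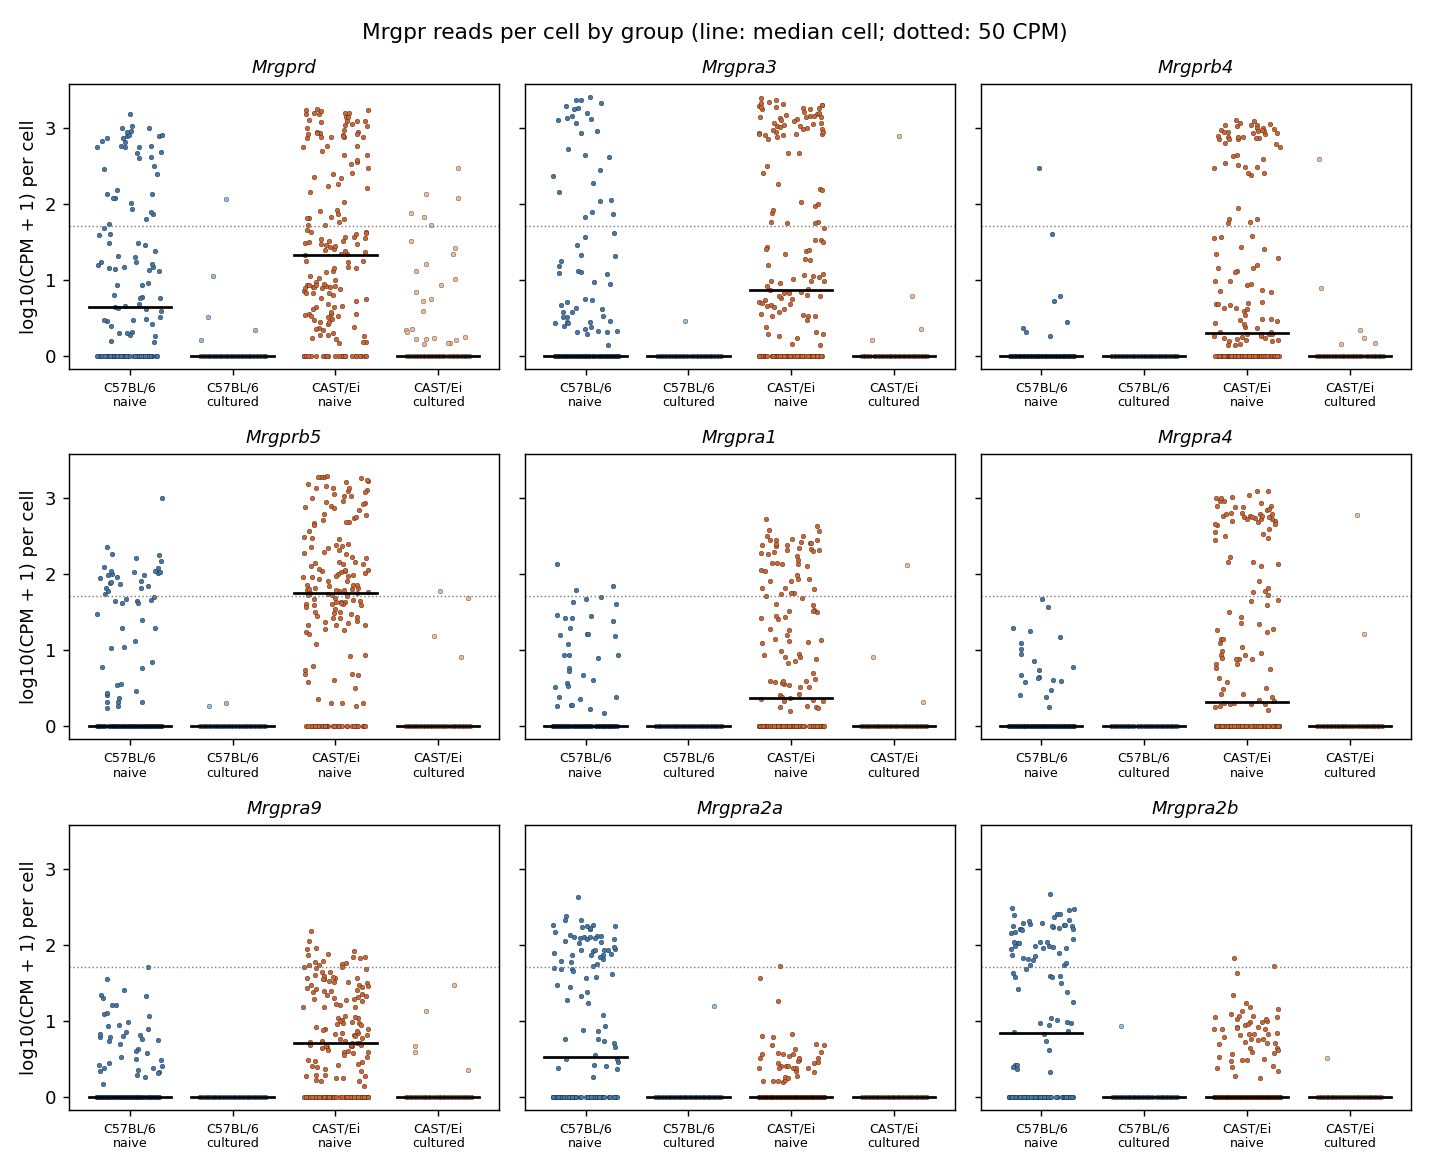
Each point is 1 cell, placed by its log10(CPM + 1) for 1 Mrgpr gene per panel, with the 4 groups on the x axis, the median cell as a line and 50 CPM dotted. Naive cells range from 0 to a highest value of 2567 CPM (Mrgpra3, C57BL/6), while 8 of the 210 cultured cells reach the dotted line with any member.

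Levels of a member varied widely between naive cells. Mrgprd ranged from 0 through a median of 3.36 to 1499 CPM over the naive C57BL/6 cells, and from 0 through 20.3 to 1758 CPM over the naive CAST/Ei cells. A member was called present in a cell at 50 CPM or more and 5 or more reads. Mrgprd was then present in 37 naive C57BL/6 cells, at a median of 550.2 CPM, and in 62 naive CAST/Ei cells, at 761 CPM. Ranges of the strains overlapped over nearly their whole width.

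Mrgpra3 ran from 0 (also the median) to 2567 CPM in naive C57BL/6 cells and from 0 through 6.42 to 2494 CPM in naive CAST/Ei cells. It was present in 26 and 64 cells, at medians of 1031 and 1054 CPM. The level in a cell that had Mrgpra3 was thus close in the strains, and the share of such cells was larger in CAST/Ei. Mrgprb4 was different. It was present in 1 naive C57BL/6 cell (290.1 CPM), which held 94.2% of the 634 reads of that group, and in 48 CAST/Ei cells at a median of 745 CPM and a highest value of 1259 CPM.

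Mrgprb5 was the most widely detected member in CAST/Ei, present in 95 cells, with 0, 56.5 and 1964 CPM as lowest, median and highest values. In naive C57BL/6 it was present in 26 cells at a median of 98.3 CPM, and 1 cell at 1006 CPM held 18.5% of its reads. Mrgpra4 reached at most 45.8 CPM in a naive C57BL/6 cell and was present in none, against 52 CAST/Ei cells with a median of 556 CPM. Mrgpra1, for which bilirubin is a known ligand, was present in 3 and 45 cells, and Mrgpra9 in 0 and 17. The near-identical pair went the other way, with Mrgpra2a present in 42 and 1 cells and Mrgpra2b in 48 and 2.

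Thinning every cell to 200000 reads, which left out 8 to 14 cells per group, removed the difference in depth between the groups (medians of 696013 reads in naive C57BL/6 and 960205 in naive CAST/Ei). At 5 or more reads of the thinned cells, any member was detected in 60.5% of naive C57BL/6 cells (51.3 to 69.1) and 84% of those of CAST/Ei (77.5 to 89.3). Without thinning the shares were 68.9% and 90.2%. The order of the strains was the same for Mrgprd (33.1% and 44.8%), Mrgpra3 (23.4% and 41.1%), Mrgprb4 (1.61% and 31.9%) and Mrgprb5 (29% and 69.9%), and opposite for Mrgpra2b (43.5% and 1.84%). Unthinned shares were 44.7% and 63.8% for Mrgprd, 29.5% and 55.2% for Mrgpra3, 2.27% and 37.9% for Mrgprb4, 32.6% and 74.7% for Mrgprb5, and 47.7% and 17.2% for Mrgpra2b.

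Detection of Mrgprd did not separate the naive cells classed as neuron-like from the others. It was found after thinning in 5 of 16 other naive C57BL/6 cells and in 6 of 8 in CAST/Ei, which had 41.3 and 152.6 CPM of Mrgprd over all 17 and 11 such cells, against 123.7 and 241 CPM in neuron-like cells. By contrast Mrgprb5 was found in 0 of 16 and 2 of 8 other cells. At 50 CPM Mrgprd was likewise present in 4 of 17 and 6 of 11 other cells (23.5% and 54.5%), beside 28.7% and 34.4% of neuron-like cells. Neither limit thus gives a share of cells that is particular to neuron-like cells, and the counts of Mrgprd cells below hold such other cells too.

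Mrgprd and Mrgpra3 or Mrgprb4 occurred both apart and together in naive cells at 50 CPM. In C57BL/6, 31 cells had Mrgprd without Mrgpra3 or Mrgprb4, 20 had Mrgpra3 or Mrgprb4 without Mrgprd, and 6 cells (4.55%, 1.69 to 9.63) had both. In CAST/Ei these counts were 43, 50 and 19 cells (10.9%, 6.70 to 16.5). Mrgprd was thus present in 23.1% (8.97 to 43.6) of the C57BL/6 cells with Mrgpra3 or Mrgprb4 and in 29.2% (20.8 to 38.9) of those without, and in 27.5% (17.5 to 39.6) and 41% (31.5 to 50.98) in CAST/Ei, with intervals that overlapped in both strains. The joint count depended on the level asked for. From 10 CPM it was 17 and 43 cells, beside 38 and 51 with Mrgprd only and 21 and 45 with Mrgpra3 or Mrgprb4 only. From 200 CPM it was 0 and 7, beside 26 and 41 with Mrgprd only and 20 and 46 with Mrgpra3 or Mrgprb4 only. The shares and overlaps above thus hold for 50 CPM and do not describe higher levels. Pearson r of Mrgprd over naive C57BL/6 and CAST/Ei cells was -0.10 and -0.24 with Mrgpra3, and -0.05 and -0.23 with Mrgprb4.

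Cells with both had lower medians of each receptor. Mrgprd ranged from 62.7 through 109.4 to 132.7 CPM in the 6 joint C57BL/6 cells, and from 52.6 through 569 to 1499 CPM in the 31 cells with Mrgprd alone of the 3 genes. In CAST/Ei the corresponding values were 51.7, 249 and 1684 CPM in joint cells and 52.3, 857 and 1758 CPM in the others, so the ranges overlapped. Mrgpra3 had a median of 195 CPM in the joint C57BL/6 cells and 1326 CPM in the 20 cells without Mrgprd, and of 463 and 1157 CPM in CAST/Ei. Genes detected had medians of 6988 in joint and 8327 in Mrgprd cells of C57BL/6, and of 8572 and 8550 in CAST/Ei. No caller of doublets was run. Without the tenth of cells with most genes, 6 and 16 joint cells were counted, and a part of 2 cells captured together was not tested.

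**Figure D2:**
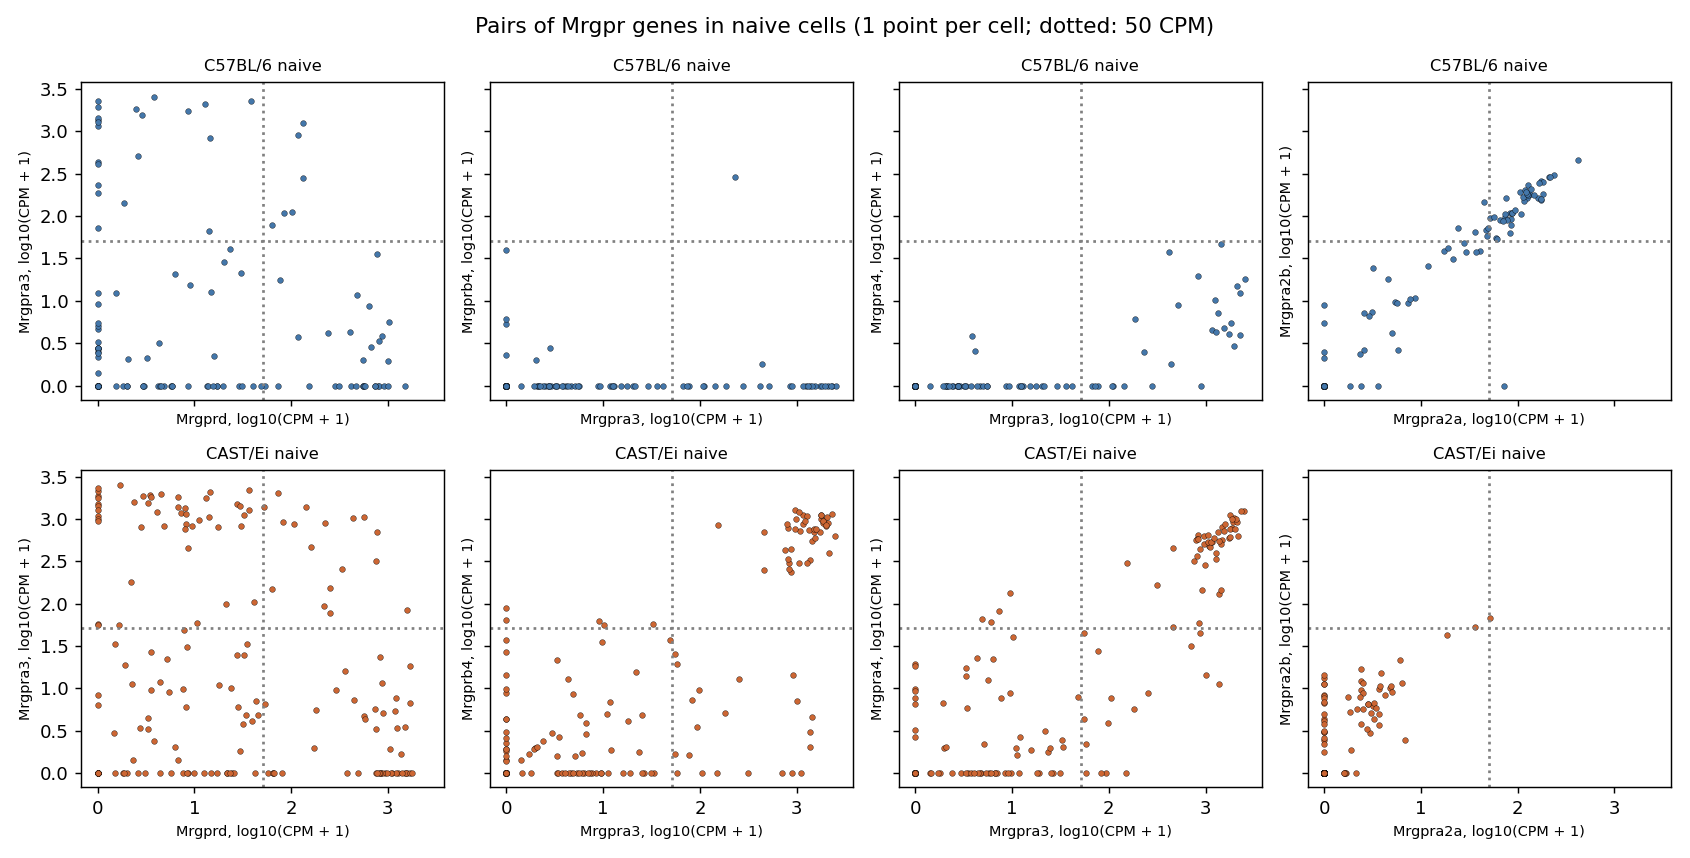
Each point is a naive cell, placed by log10(CPM + 1) of 2 Mrgpr genes, for C57BL/6 (top) and CAST/Ei (bottom), with 50 CPM dotted. The Mrgprd and Mrgpra3 panels hold 6 and 17 cells past both dotted lines, while the Mrgpra3 and Mrgpra4 panel of CAST/Ei holds 48 and that of C57BL/6 holds 0.

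Mrgprb5 occurred with Mrgprd and with Mrgpra3. It was present in 19 of 37 Mrgprd cells and 10 of 26 Mrgpra3 cells in C57BL/6, and in 48 of 62 and 49 of 64 in CAST/Ei. Its median was higher in CAST/Ei cells with Mrgprd alone of the 3 genes (492 CPM) than in those with Mrgpra3 or Mrgprb4 alone (71.7 CPM). Over cells its Pearson r on the log2(CPM + 1) scale was 0.51 with Mrgprd and 0.33 with Mrgpra3 over all naive C57BL/6 cells, and 0.57 and 0.25 over all naive CAST/Ei cells. These correlations are descriptions, since cells share libraries, depth and animals of unknown number.

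In CAST/Ei, Mrgpra3 cells carried a set of receptors together. Of 64 cells with Mrgpra3, 48 had Mrgpra4, 44 had Mrgpra1, 43 had Mrgprb4 and 16 had Mrgpra9. In the other direction 48 of 52 Mrgpra4 cells, 44 of 45 Mrgpra1 cells, 43 of 48 Mrgprb4 cells and 16 of 17 Mrgpra9 cells had Mrgpra3. Pearson r with Mrgpra3 was 0.86 for Mrgpra4, 0.78 for both Mrgpra1 and Mrgprb4 and 0.64 for Mrgpra9. Mrgpra3 and Mrgprb4, coding sequences identical at 66.2%, share no run of 75 bases, while Mrgpra3 and Mrgpra4 are the closest pair after Mrgpra2a and Mrgpra2b, and the part of shared reads in their co-detection was not tested.

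In C57BL/6 the set around Mrgpra3 was another one. Of 26 Mrgpra3 cells, 21 had Mrgpra2b, 19 had Mrgpra2a, 10 had Mrgprb5, 3 had Mrgpra1, 1 had Mrgprb4 and 0 had Mrgpra4. Below the limit of presence, Mrgpra4 had r of 0.76 with Mrgpra3 over the naive cells and a highest value of 45.8 CPM. Its summed level in naive C57BL/6 cells was 1.04 CPM, beside 207.2 CPM of Mrgpra3. Of the runs of 50 bases of Mrgpra3, 5.62% occur in Mrgpra4. The part of shared reads in this correlation was not tested. Mrgpra2a and Mrgpra2b were not particular to Mrgpra3 cells, since 15 and 18 of 37 Mrgprd cells had them too. The 20 cells with Mrgpra3 or Mrgprb4 without Mrgprd had a median of 192 CPM of Mrgpra2b, and the 31 Mrgprd cells 47.2 CPM, with ranges that overlapped. In CAST/Ei no Mrgpra3 cell had either gene at 50 CPM, while Mrgpra2b at lower levels had r of 0.62 with Mrgpra3.

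Counting members per cell, 63 naive C57BL/6 cells had none, 14 had exactly 1 and 55 had 2 or more, with at most 5. In naive CAST/Ei cells 49 had none, 26 had exactly 1 and 99 had 2 or more, with at most 6. In C57BL/6, 20 cells had exactly 4 members and 1 had 5. In CAST/Ei, 23 had exactly 5 and 15 had 6. The member highest per kilobase was Mrgprd in 28 and Mrgpra3 in 23 of the 69 C57BL/6 cells with a member, and Mrgpra2b in 12, Mrgpra2a in 4, and Mrgprb4 and Mrgprb5 in 1 each. In the CAST/Ei cells with a member it was Mrgprb5 in 53, Mrgpra3 in 42, Mrgprd in 17, Mrgprb4 in 9, Mrgpra4 in 3 and Mrgpra1 in 1.

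**Figure D3:**
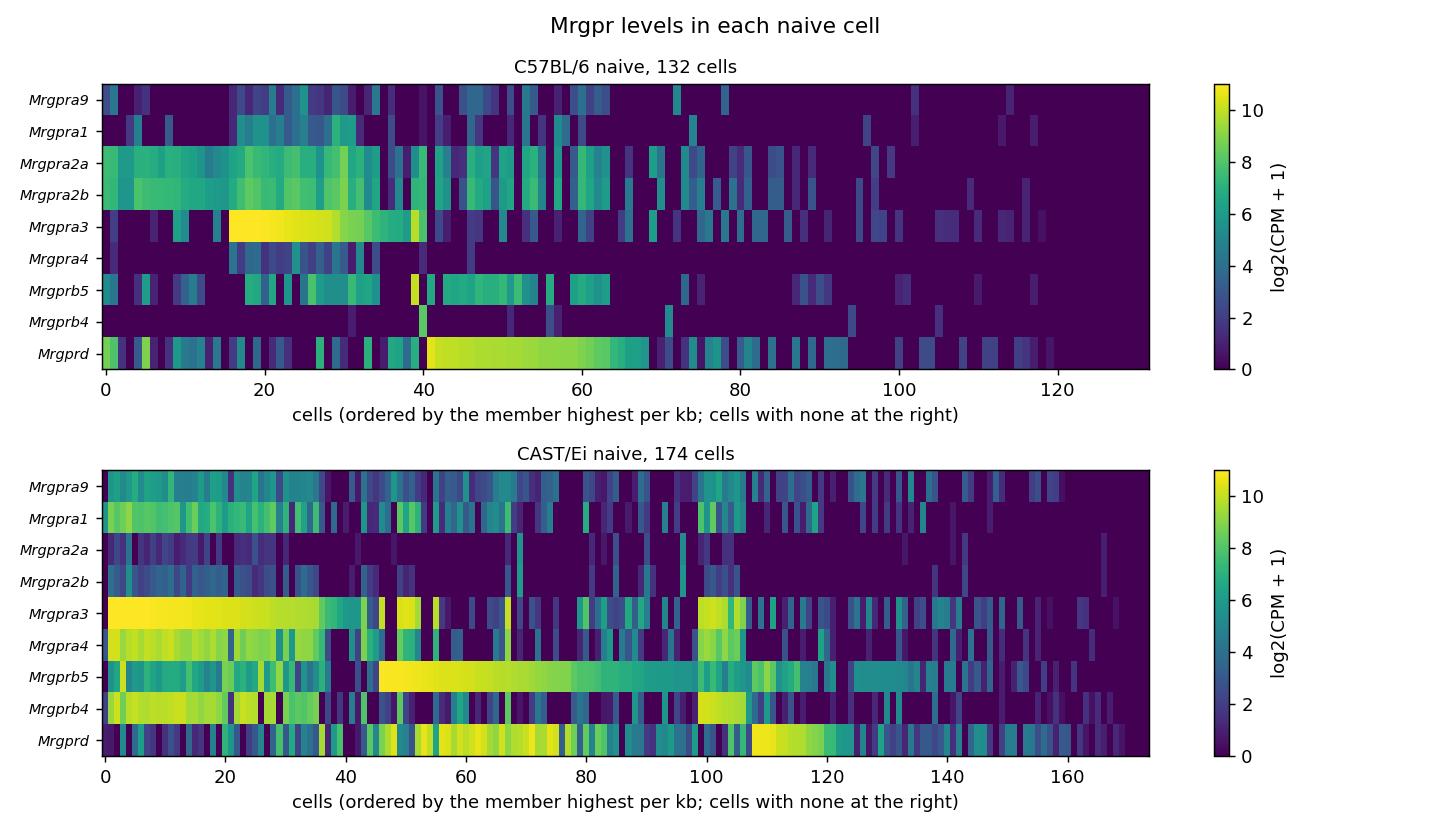
Colour gives log2(CPM + 1) of each Mrgpr gene (rows, in chromosomal order) in each naive cell (columns), ordered by the member highest per kilobase, with the cells that had no member at the right (63 in C57BL/6 and 49 in CAST/Ei). Mrgpra2a and Mrgpra2b are bright in C57BL/6 and dark in CAST/Ei, and Mrgpra4, Mrgprb4 and Mrgpra1 are bright beside Mrgpra3 in CAST/Ei.

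Reads of the near-identical pair divided in a similar ratio in most cells. In naive C57BL/6 cells Mrgpra2a had 4535 and Mrgpra2b 6057 reads, so that Mrgpra2a took 42.8% (41.9 to 43.8). Over the 59 cells with 20 or more reads of the pair, its share had a median of 41.9%, quartiles of 37.9% and 45.6%, and a range of 8.57% to 57%. Both genes had a read in 70 cells and 1 alone in 4 cells each way, with r of 0.96. In naive CAST/Ei cells 269 and 575 reads gave 31.9% (28.7 to 35.1), with both genes in 36 cells, Mrgpra2a alone in 6 and Mrgpra2b alone in 20. Transcription of both genes in the same cells and reads of 1 gene divided between both cannot be told apart.

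The strains were then compared by the log2 ratio of summed CPM + 1, called at 2-fold among genes with at least 1 CPM in either group. Of the 9 members, 6 were at least 2-fold higher in naive CAST/Ei than in naive C57BL/6 cells (6.74% of all 11196 genes measured), and 2 were at least 2-fold lower (8.12%). The members' median ratio was 2.27, with a median of 0.04 over all genes. Mrgpra4 stood furthest apart, with 152.2 CPM in CAST/Ei and 1.04 CPM in C57BL/6, a 146.2-fold difference (121.8 to 176.95). Mrgprb4 had 165.8 and 5.69 CPM, a 29.1-fold difference, and leaving out the cell with most reads in each group raised the log2 ratio from 4.64 to 6.90. Without its top cell the C57BL/6 level of Mrgprb4 was 0.338 CPM.

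Mrgprb5 (299 and 26.7 CPM) was 11.2-fold higher in CAST/Ei, Mrgpra1 (55.2 and 5.34 CPM) 10.3-fold and Mrgpra9 (13.4 and 1.99 CPM) 6.73-fold. Mrgprd had 237.5 and 110.9 CPM, a log2 ratio of 1.09, which was 0.96 among neuron-like cells and 0.88 with every cell weighted equally, under the 2-fold limit. Mrgpra3 had 392.7 and 207.2 CPM, a log2 ratio of 0.92 that missed the limit and reached 1.10 without the top cell of each group. Mrgpra2a had 40.7 CPM in C57BL/6 and 1.54 CPM in CAST/Ei (26.4-fold lower), and Mrgpra2b 54.4 and 3.30 CPM (16.5-fold lower). Their sum was 95.1 and 4.84 CPM, and the other 7 members together had 359 and 1316 CPM.

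The position of a member on the chromosome did not sort these differences into 1 block. Mrgpra2a and Mrgpra2b, lower in CAST/Ei, lie between Mrgpra1 and Mrgpra3, of which Mrgpra1 was 10.3-fold higher. The reference mm10 is a C57BL/6 sequence, no CAST/Ei sequence was used here, and a difference in level cannot be told apart from one in how CAST/Ei reads were placed. The 2 members that were lower in CAST/Ei are those with 78.7% or more of their 75-base runs shared with another gene, while Mrgprb4 and Mrgprb5, at 0, were both higher. Mrgpra9 (1.77%) and Mrgpra4 (1.27%), next in that share, were higher as well, 6.73-fold and 146.2-fold. The part of shared sequence in the strain ratios was not tested. As summed levels, fewer cells with a member and less RNA per cell are joined, and the counts per cell above give the first.

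**Figure D4:**
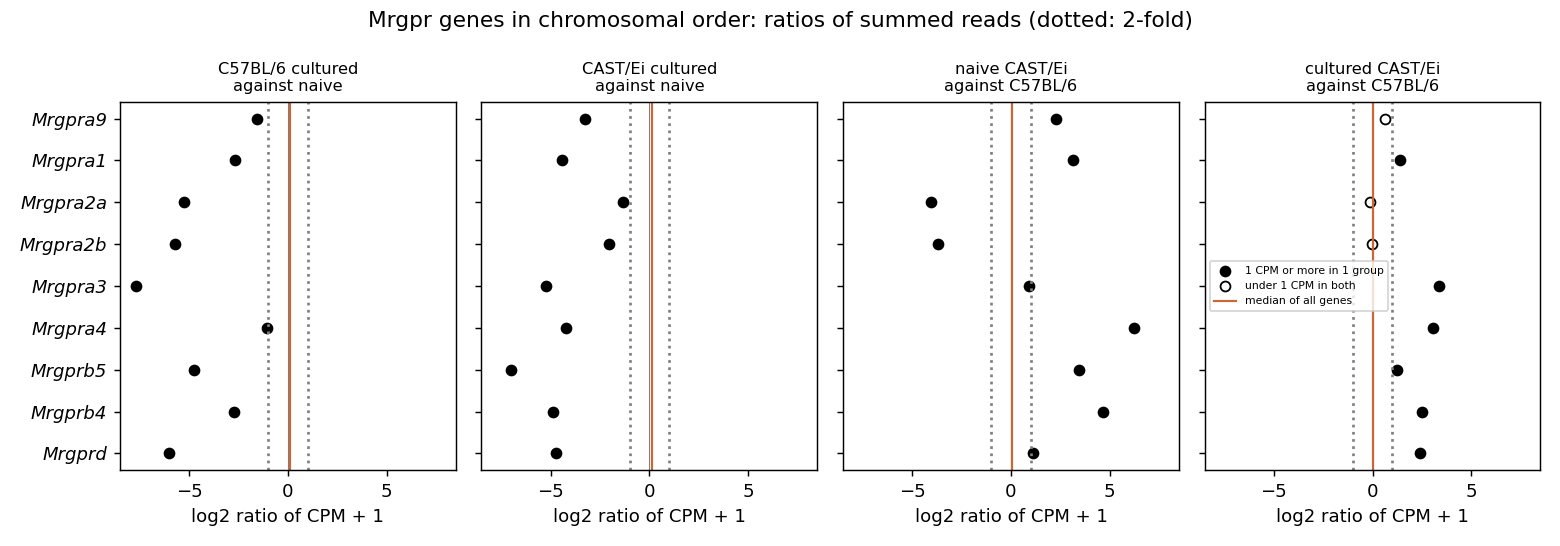
Points give the log2 ratio of summed CPM + 1 for each Mrgpr gene in chromosomal order, 1 panel per comparison, with 2-fold dotted and the median of all genes in orange; open points had under 1 CPM in both groups. All 9 members lie left of the dotted line at -1 in both culture panels, and in the naive strain panel they run from -4.04 (Mrgpra2a) to 6.23 (Mrgpra4).

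All 9 members were at least 2-fold lower in cultured than in naive cells, in C57BL/6 (20.6% of all genes measured were) and in CAST/Ei (18.7%). In C57BL/6 every member passed the limit of 1 CPM only through the naive cells, and in CAST/Ei Mrgpra9, Mrgpra2a and Mrgpra2b did. For members without a cultured read, passing that limit fixes the call. These were Mrgprb4, Mrgpra1, Mrgpra9 and Mrgpra4 in C57BL/6 and Mrgpra2a in CAST/Ei. Mrgpra3, Mrgprb5, Mrgpra2a and Mrgpra2b held 0.0103 to 0.0823 CPM in cultured C57BL/6 cells, and Mrgpra2b 0.0264 CPM in CAST/Ei. At such levels passing the limit nearly fixes the call, so the C57BL/6 count is no separate result apart from Mrgprd. Without the top cell of each group, 7 members passed the limit in C57BL/6 and all 7 were lower. Their cultured levels were then 0 to 0.0931 CPM, which nearly fixes that count too. The members' median log2 ratio was -4.76 in C57BL/6 and -4.45 in CAST/Ei, beside 0.12 and 0.14 over all genes. Together they had 454 CPM (450.1 to 458) in naive and 0.875 CPM (0.699 to 1.08) in cultured cells of C57BL/6, and 1321 and 32.7 CPM in CAST/Ei. Cultured groups held fewer neuron-like cells, as given above, and different cells were captured before and after culture, so loss of a transcript and loss of the cells that carried it cannot be told apart. Among neuron-like cells alone all 9 were again lower in both strains (27.9% and 23.4% of all genes were), with median log2 ratios of -4.93 and -3.98. Neuron-like cultured C57BL/6 cells held Mrgprd at 0.416 CPM, Mrgprb5 at 0.0693 CPM and no read of the others. Passing the limit through naive cells thus fixes or nearly fixes the C57BL/6 count, which is no separate result. The same holds in CAST/Ei for Mrgpra2a (0 CPM) and Mrgpra2b (0.0457 CPM).

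In C57BL/6 Mrgprd went from 110.9 to 0.720 CPM, 154.02-fold lower (121.8 to 197.7), and 61 of the 70 reads that were found in culture came from 1 cell, without which the level was 0.0931 CPM. Mrgpra3 had 23076 reads in naive and 1 read in cultured cells, a ratio of 20135 with a counting interval of 3614 to 795330. Mrgprb5 had 2 cultured reads, 1299-fold lower with an interval of 359 to 10730. Mrgpra2a and Mrgpra2b, with 8 and 4 cultured reads, were 495-fold and 1321-fold lower. Mrgprb4, Mrgpra1, Mrgpra9 and Mrgpra4 had no read in culture. With 3 reads taken as the limit for each group sum, they were at least 184-fold, 173.06-fold, 64.6-fold and 33.7-fold lower. The naive level of Mrgprb4 behind its bound rested on the 1 cell named above.

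In CAST/Ei Mrgprd went from 237.5 to 7.95 CPM, 29.9-fold lower (27.99 to 31.96). Mrgprb5 was 218-fold lower, Mrgpra3 42.1-fold, Mrgprb4 35.3-fold, Mrgpra1 35.1-fold, Mrgpra9 25.4-fold and Mrgpra4 21.1-fold. Mrgpra2a, with no cultured read, was at least 58.5-fold lower from a naive level of 1.54 CPM. Mrgpra2b had 3 cultured reads, a ratio of 125.04 with an interval of 42.6 to 608.

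Only 8 of the 210 cultured cells had a member present. Of these, 6 were CAST/Ei cells with Mrgprd and no other member, at 52.2, 66.6, 75.2, 117.2, 131.6 and 291.5 CPM. Another was the C57BL/6 cell with Mrgprd at 113.2 CPM, which the markers did not class as neuron-like (Tubb3, a neuronal tubulin, at 76.1 CPM, and the sodium channel gene Scn10a at 245 CPM). The last, cell 60 of the CAST/Ei culture by its label, held Mrgpra3 at 788 CPM, Mrgpra4 at 600 CPM, Mrgprb4 at 388 CPM, Mrgpra1 at 129.7 CPM, Mrgprb5 at 58.5 CPM and Mrgprd at 0.75 CPM, the set seen together in naive CAST/Ei cells.

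Cell 60 held 1051 of the 1060 cultured Mrgpra3 reads in CAST/Ei, 517 of 534 for Mrgprb4, 800 of 821 for Mrgpra4 and 96.6% of those of Mrgpra1. Without it Mrgpra3 was at 0.0801 CPM, 4905-fold below the naive level, Mrgprb4 1097-fold, Mrgpra1 1034-fold, Mrgpra4 815-fold, Mrgprb5 431-fold and Mrgpra9 68.6-fold below, while Mrgprd stayed at 29.6-fold. All 9 members were lower with and without it. Of 4 genes known to rise after axon injury, the cell was below the group median for Sprr1a (13.5 CPM, median 132.3), Sox11 (122.2 CPM, 909) and the neuropeptide gene Gal (151.5 CPM, 1087), and above it for the transcription factor gene Atf3 (403 CPM, 199.3). Scn10a was at 415.5 CPM in it, against a group median of 3.16. These medians are over all 99 cultured CAST/Ei cells, of which 60 were neuron-like. In the 6 cultured CAST/Ei cells with Mrgprd, Sprr1a ran from 15.2 to 1861 CPM, Gal from 9.34 to 4991 and Atf3 from 3.88 to 1497. Sox11 ran from 1097 to 3531 CPM in those 6 cells and Scn10a from 0.776 to 294. The origin of cell 60 was not tested.

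Detection in thinned cells gave the same picture, with any member in 1 of 97 cultured C57BL/6 cells (1.03%, 0.0261 to 5.61) and 9 of 90 of CAST/Ei (10%, 4.68 to 18.1). Unthinned shares were 1.80% and 19.2%. Among thinned cultured cells not classed as neuron-like, 1 of 77 and 2 of 37 had a member. Mrgpra3 was detected in 0 of 97 cultured C57BL/6 cells, which allows a share of up to 3.09% when 3 cells are taken as the limit (Clopper-Pearson upper limit 3.73%).

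Between the cultured groups, 6 members had at least 1 CPM in a group, each only in CAST/Ei. All 6 were at least 2-fold higher there (15.8% of all genes measured were). For the 5 other than Mrgprd, C57BL/6 held 0 to 0.0206 CPM. On the CPM + 1 scale, reaching 1 CPM in CAST/Ei then nearly fixes the call, so their count is no separate result. Mrgprd had 7.95 CPM in cultured CAST/Ei and 0.720 CPM in cultured C57BL/6, a log2 ratio of 2.38. Its ratio was 2.51 without the top cell of each group. The other 5 (Mrgpra3, Mrgpra4, Mrgprb4, Mrgpra1 and Mrgprb5) had 50% to 99.2% of their CAST/Ei reads in cell 60. Without the top cell of each group 1 member, Mrgprd, still had 1 CPM and was called. Neuron-like cells were 60.6% of the CAST/Ei and 24.3% of the C57BL/6 culture, and the part of that in the ratio of Mrgprd was not tested.

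Of 14 other Mrgpr genes listed, Mrgprx1 and Mrgpre were measured. Mrgprx1, whose product responds to the itch peptide BAM8-22, had 10.6 CPM in naive C57BL/6 and 15.5 CPM in naive CAST/Ei cells, and 0 and 1.04 CPM in culture. Over naive cells its r with Mrgpra3 was 0.56 in C57BL/6 and 0.54 in CAST/Ei. Mrgpre had 36.9 and 18.7 CPM before and after culture in C57BL/6 and 68.7 and 66.7 CPM in CAST/Ei, where 1 cultured cell held 59.7% of its reads and the level without that cell was 27.4 CPM. The share of thinned cells with 5 or more reads of it was 38.7% before and 14.4% after culture in C57BL/6, against 68.7% and 26.7% in CAST/Ei. Over neuron-like cells alone its summed level was higher in culture, with 40.1 and 46.6 CPM in C57BL/6 and 70.9 and 81.8 CPM in CAST/Ei. The cultured CAST/Ei value rests on the cell named above, which had 4531 of the 7588 cultured reads of Mrgpre. All cells not neuron-like had 2220, so most neuron-like reads came from that cell. The higher level in CAST/Ei is thus that of 1 cell, and the neuron-like level without it was not computed. The share of thinned neuron-like cells with Mrgpre was lower in culture, 40.7% and 25% (5 of 20 cells) in C57BL/6 and 71% and 28.3% in CAST/Ei.

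Among the genes most like Mrgprd over the naive cells, by the mean of the 2 strains' Pearson r among 10921 genes, were Gm765 (0.77 in C57BL/6 and 0.70 in CAST/Ei), Lpar3, a receptor for lysophosphatidic acid (0.72 and 0.64), Prkcq, a protein kinase C (0.76 and 0.54) and the thioredoxin gene Txn1 (0.60 and 0.53). Those most like Mrgpra3 were the protease gene Tmprss11c (0.79 and 0.64), the adenosine receptor gene Adora2b (0.57 and 0.73), the Wnt agonist gene Rspo1 (0.67 and 0.59), Tnr (0.57 and 0.68) and the cytochrome gene Cyp4b1 (0.58 and 0.66). For Mrgprb4 they were Mlc1 (0.41 and 0.72), the phosphatase gene Ptpn6 (0.36 and 0.73), Adora2b (0.21 and 0.76), the thrombin receptor gene F2r (0.17 and 0.70) and 2610307P16Rik (0.17 and 0.69). The Mrgprb4 values rest on CAST/Ei, since few C57BL/6 cells had a read of it. The likeness is over the 306 naive cells, strain by strain.

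Among 19 measured genes of itch and non-peptidergic neurons, 17 were lower by 2-fold or more after culture in C57BL/6 and 1 was higher (20.6% and 23% of all genes were), and 16 were lower and 0 higher in CAST/Ei (18.7% and 22.6%). Among neuron-like cells 13 and 16 of them were lower (27.9% and 23.4% of all genes). The median log2 ratios of the 19 genes were -3.03 and -2.94 over all cells and -3.62 and -2.41 over neuron-like cells. Each was nearer 0 than that of the Mrgpr members. Between naive strains 4 of these genes were higher in CAST/Ei and 0 lower (6.74% and 8.12% of all genes). Hrh1, a histamine receptor gene, had r of 0.79 with Mrgpra3 in C57BL/6 and 0.23 in CAST/Ei. Osmr, a subunit of the receptors for oncostatin M and interleukin-31, had 0.34 and 0.31. Il31ra, the other subunit of the interleukin-31 receptor (0.08 and -0.01), the leukotriene receptor gene Cysltr2 (-0.02 and -0.08), Nppb, the gene of a natriuretic peptide released by itch neurons (0.04 and 0.02), and the somatostatin gene Sst (-0.01 and -0.18) were weakly or negatively related to Mrgpra3.

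Of 13 signalling genes, 6 were lower and 1 higher by that limit after culture in C57BL/6, and 5 lower and 2 higher in CAST/Ei. The shares of all genes were 20.6% lower and 23% higher in C57BL/6 and 18.7% and 22.6% in CAST/Ei. The counts of higher genes were thus near or under the share of all genes. Among neuron-like cells 5 and 4 of the 13 were lower, beside 27.9% and 23.4% of all genes. Gnaq, a Gq subunit gene, had r of 0.55 and 0.47 with Mrgprd, and its relative Gna14 0.52 and 0.24. Gna14 went from 232.7 to 27.4 CPM with culture in C57BL/6 and from 509 to 123.7 CPM in CAST/Ei, and Gnaq from 449 to 172.7 and from 662 to 512 CPM. Gna11, a Gq family gene as well, had r of -0.04 and 0.02 with Mrgprd. Levels of Gna11 were 120.5 and 154.9 CPM in C57BL/6 and 151.5 and 214 CPM in CAST/Ei. The inhibitory subunit genes Gnai1 and Gnai2 and the phospholipase gene Plcb1 had r between -0.28 and -0.01 with Mrgprd.

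Of 6 transcription factor genes of these neurons, 3 were lower and 1 higher after culture in each strain, beside the same shares of all genes. Among neuron-like cells 3 and 2 of them were lower, beside 27.9% and 23.4% of all genes. The median log2 ratio of the 6 genes in CAST/Ei was -0.31 over all cells and 0.03 over neuron-like cells. Runx1, a factor known to be needed for Mrgpr expression during development, had r of 0.38 and 0.32 with Mrgprd, and -0.16 and -0.64 with Mrgpra3. Its level was 368 CPM in naive C57BL/6 and 176.6 CPM in naive CAST/Ei cells. Cbfb, the partner of RUNX factors, had r of -0.29 and -0.32 with Mrgprd and 0.11 and 0.07 with Mrgpra3. Zfp521 had -0.38 and -0.25 with Mrgprd, while Isl1, Pou4f1 and Smad4 lay between -0.16 and 0.16.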

How the data were processed

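Polyadenylated RNA of single cells was captured on a microfluidic chip, amplified and tagmented, per the labels' protocols, which also place cells of all conditions on each sequencing run without naming runs. The file that the authors deposited holds unnormalised counts of reads, 1 row per gene and 1 column per cell. Bowtie2, SAMtools and mm10 are named, without roles, per the submitters' processing notes. The sources used here name no counter, annotation or filter. Every gene has a read in at least 60 cells, and 0 columns were left unused or identical.

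Counts were scaled to CPM per cell or per summed group, with ratios on the log2(CPM + 1) scale. Positions and transcript lengths came from GENCODE M21 and upstream windows from RefSeq. The members and gene lists were chosen with earlier results of these data known. All 9 members are named; likeness names the 5 genes with the highest mean r for Mrgprd, Mrgpra3 and Mrgprb4 among genes at 10 CPM in 20 or more naive cells, of which 1 for Mrgprd is not reported here; each fixed list gives up to 6 genes, the first in the table. Of the marker lists, 12 of 12 neuron, 10 of 10 glial, 6 of 7 fibroblast, 6 of 7 endothelial and 1 of 6 macrophage genes were measured, and the last was not used. Computation used Python 3.11.15, numpy 2.4.6, pandas 2.3.3, SciPy 1.17.1 and Biopython 1.88, and the fold calls and likeness were tested on simulated data. Alternatives covered scaling, pseudocount, filters, cell weights, cell class, presence level and single cells.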

Additional observations from a re-analysis of the deposited data

How the results depend on the processing

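No paired analysis was possible because the numbers in the titles only name cells and the results come from no test. No log2 ratio of a member that reached 1 CPM in either group changed sign under the alternatives run. Below that limit, Mrgpra2b between the cultures had 0.0264 (CAST/Ei) and 0.0412 CPM (C57BL/6) over all cells. Over neuron-like cells it had 0.0457 and 0 CPM, the opposite order. Over neuron-like cells alone the culture ratios of Mrgpre and the median of the transcription factor genes in CAST/Ei changed sign, as given above. That of Mrgpre in CAST/Ei rested on 1 cell. Of the counts and shares above, 60 alternative values stayed near the reported one and 21 moved, and of the single ratios 241 stayed and 16 moved. With a pseudocount of 10 CPM, 5 of 9 members were lower in cultured C57BL/6 cells and 0 of 6 differed between the cultured strains. With genes kept from 10 CPM these counts were 5 of 5 and 0 of 0, so every member kept in the C57BL/6 comparison was still called and none was left to compare between the cultures. Without the top cell of each group 1 member differed between the cultured strains. Naive cells with Mrgprd and Mrgpra3 or Mrgprb4 numbered 17 and 43 (C57BL/6 and CAST/Ei) from 10 CPM and 0 and 7 from 200 CPM. From 200 CPM, 35 C57BL/6 and 14 CAST/Ei cells had exactly 1 member and 12 C57BL/6 cells 2 or more. Among neuron-like C57BL/6 cells 7 had exactly 1. By Spearman rho, 2 of the 5 genes most like Mrgpra3 and 3 of those most like Mrgprb4 were again named. The share of cells with any member was 82.3% (naive C57BL/6), 94.5% (naive CAST/Ei) and 22.2% (cultured CAST/Ei) at 1 thinned read, 90.2% and 19.2% in naive and cultured CAST/Ei without thinning, and 0% in neuron-like cultured C57BL/6 cells. Causes of these shifts beyond the changed limits were not tested. Leaving out cell 60 of the CAST/Ei culture was chosen after seeing the data. The depth of cultured cells limits members at 0 reads to the bounds given.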
